A study of Mus musculus with 1646 samples.

Results

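The basement membrane and network collagens of the mouse colon were followed as 10 genes, Col4a1, Col4a2, Col4a3, Col4a4, Col4a5, Col4a6, Col8a1, Col8a2, Col15a1 and Col18a1. They were taken from the 46517 genes of the colon count table by matching its Ensembl identifiers to GENCODE vM21 symbols, and all 10 were found. The study sorted mesenchymal cells of male mice aged 10 to 20 weeks into wells and sequenced 1646 of them with SmartSeq2, a full-length protocol without molecular identifiers. The cells came from 4 fluorescent reporter lines on a C57Bl6/J background, and the sort kept cells negative for the endothelial surface protein CD31. PdgfrbGFP, a transgene under the Pdgfrb promoter, gave 46.2% of the cells on 4 plates, and PdgfraGFP, a nuclear GFP knocked into Pdgfra, gave 13.8% on 2 plates. Acta2GFP, a transgene under the smooth muscle actin promoter, gave 34.4% on 2 plates, and Cspg4dsRED, a transgene under the Cspg4 promoter, gave 5.53% on 1 plate. The Acta2GFP tissue was dissociated with elastase added, so this enzyme and that line cannot be told apart. The labels name no mouse, so the line was taken as the sample, and the spread given below is that between lines, which also differ in plate.

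The labels put each cell in 1 of 8 clusters drawn from gene expression. The study named the mural ones from marker genes, and located the interstitial smooth muscle cells by HHIP staining. The fibroblast names are places along the crypt. Staining put Tnc-positive, Cd34-negative cells at the apex and Cd34-positive cells deeper, and the paper describes gradual changes of expression between these extremes. Fibroblasts comprised 1307 cells in 5 clusters, from the base of the crypt (13.5% of all cells) through base to middle (25.8%), middle (29.3%) and middle to apex (2.73%) up to the apex beneath the surface epithelium (7.96%). Mural cells, the contractile cells of vessels and of the muscle among the crypts, comprised the other 20.6% in 3 clusters, namely pericytes (8.63%), vascular smooth muscle cells or SMC (8.57%) and interstitial SMC (3.4%). The clusters were drawn from the same counts that are compared below, so no test between them is independent of the clustering.

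Type IV collagen is the sheet-forming collagen of every basement membrane. Its chains are encoded by 3 pairs of genes that lie head to head, and they join into trimers of fixed makeup, of which the trimer of the Col4a1 and Col4a2 chains is the common form. The chains of Col4a3, Col4a4 and Col4a5 form the trimer of the kidney filter, and those of Col4a5 and Col4a6 form one known from smooth muscle and some epithelial basement membranes. Type VIII collagen, from Col8a1 and Col8a2, builds short-chain networks in vessel walls and beneath some epithelia and endothelia. Types XV and XVIII, from Col15a1 and Col18a1, carry sugar chains and sit where basement membranes meet the matrix, and a fragment of type XVIII is released as endostatin.

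The starts of the paired genes are shown because 2 of the 3 pairs had levels that followed each other over the clusters. In GENCODE vM21 on GRCm38, Col4a1 starts at base 11312826 of chromosome 8 on the minus strand and Col4a2 at base 11312805 on the plus strand, so that their first exons overlap by 22 bases. Between the starts of Col4a4 and Col4a3 on chromosome 1 lie 71 bases, and between those of Col4a6 and Col4a5 on chromosome X lie 1308 bases. The stretches printed here were read from RefSeq promoter windows of GRCm38.p6, which run from 250 bases before to 50 bases after a start, and 9 of the 10 genes matched a window. Capitals mark the GC box with the letters GGGCGG, the box named for its letters CCAAT, or the TATA box with the letters TATAAA, each searched on both strands and as letters only, and no match overlaps another in the stretches printed.
Col4a1 and Col4a2, shared exon bases, plus strand, chr8:11312805-11312826: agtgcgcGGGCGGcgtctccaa
Col4a4 and Col4a3, between the starts, plus strand, chr1:82586850-82586920: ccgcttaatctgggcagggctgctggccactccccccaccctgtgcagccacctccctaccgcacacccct
Col4a6, bases before its start, minus strand, chrX:141474077-141474326: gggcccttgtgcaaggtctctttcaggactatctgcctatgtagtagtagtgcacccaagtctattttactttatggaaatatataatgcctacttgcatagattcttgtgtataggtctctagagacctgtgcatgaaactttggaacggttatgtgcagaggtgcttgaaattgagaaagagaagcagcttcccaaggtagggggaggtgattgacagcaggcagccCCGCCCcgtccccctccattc
Col4a5, bases before its start, plus strand, chrX:141475169-141475384: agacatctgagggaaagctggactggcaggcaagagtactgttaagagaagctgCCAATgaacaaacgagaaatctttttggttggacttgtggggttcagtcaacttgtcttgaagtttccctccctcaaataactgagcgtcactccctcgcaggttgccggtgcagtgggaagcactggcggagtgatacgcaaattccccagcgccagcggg
The whole window of Col4a1 held 1 GC box and 1 CCAAT box, and that of Col4a2, which overlaps it, held 3 GC boxes and 1 CCAAT box. The Col4a6 window held 1 GC box and no CCAAT box, and the Col4a5 window held 1 of each. Over 32544 different promoter windows of 300 bases, 35.9% held a GC box, 37.4% a CCAAT box and 13.6% a TATA box, and no TATA box was found in the windows of the collagen genes.

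Depth ran from 47598 to 1494292 gene counts per cell with a median of 248628. Levels are given as counts scaled to 500000 gene counts in a cell, averaged over the cells of a cluster in a line and then over the lines with at least 10 such cells, with the SD over lines. Leading markers followed the cluster names: Pdgfra averaged 302.5 in fibroblasts and 11.1 in mural cells, Tnc 1972 at the apex and at most 542.4 elsewhere, Kcnj8 489.3 in pericytes and at most 103.1 elsewhere, and Cnn1 309.8 in vascular and 984.8 in interstitial SMC. Others crossed the names: Acta2 averaged 908.5 in middle to apex fibroblasts (473.5 to 1344 by line) and 1047 in pericytes, the fibroblast marker Dcn 694.2 in pericytes and 273.3 at the apex, and Lum 101.1 in interstitial SMC and 82.9 at the apex. Because vessel lining cells are known for type IV and type XVIII collagen, 12 endothelial markers were followed. The defining marker Cdh5 averaged 0 to 0.687 over the clusters and none of the 12 was at 0 in every cell of a cluster. Esam, also known from mural cells, made up 495.7 of the summed 586.9 in pericytes and 362.7 of 383.2 in vascular SMC, and Tek made up 179.5 of 204.9 at the crypt base. The other 10 endothelial markers summed to 84.2 in pericytes, 18.7 in vascular SMC and 14.5 to 31.2 in the remaining clusters. In pericytes Tie1 made up 39.1 of that sum (10.2 to 67.9 by line), against 0.0441 to 1.35 in the other clusters. Egfl7 was at 13.5 there, Pecam1 at 9.46 and Emcn at 7.34, while Kdr was at 1.82 and Erg at 0.374.

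The 10 genes were compared between the 2 classes, along the crypt and among the mural clusters. Each comparison was fitted over all genes with edgeR's quasi-likelihood test on counts summed per cluster or class and line, and a gene was called at a Benjamini-Hochberg adjusted p under 0.05. All 10 genes passed the filter on low counts in every fit. Between fibroblasts and mural cells edgeR called 2 of the 10, both higher in fibroblasts, where it called 3.21% of the 19173 genes tested higher and 3.36% lower. DESeq2 also called 2, where it called 15.3% of all genes in either direction. A paired fit, with the line as a replicate block, called none, where it called 1.36% of all genes higher and 1.72% lower. At the apex against the mean of the base, base to middle and middle fibroblasts, edgeR called 4 higher and 1 lower, where it called 4.79% of 18924 genes higher and 2.72% lower, and DESeq2 called 6, where it called 12.4% of all genes. Between the base and the middle of the crypt edgeR called none, with 5 of the 10 at an unadjusted p under 0.05, where it called 0.333% of all genes higher and 0.576% lower, and DESeq2 called 2, where it called 4.06% of all genes. The paired fit called 2 there, where it called 0.555% of all genes higher and 0.904% lower. In pericytes against vascular SMC, edgeR called 2 higher and none lower, where it called 0.263% of 16328 genes higher and 0.404% lower, and DESeq2 called 4, where it called 5.92% of all genes. In interstitial against vascular SMC edgeR called none, with 4 at an unadjusted p under 0.05, where it called 0.398% of all genes higher and 0.643% lower, and DESeq2 called 3, where it called 5.89% of all genes. Only 1 line held at least 10 interstitial SMC, so this last comparison has no replicate check of its own, and its p-values assume that the sum varies like those of the other mural clusters. The median log2 fold change of the 10 genes was 0.01 for the classes, −0.98 for the apex, −0.84 for the base, 1.05 for pericytes and 0.02 for interstitial SMC, and that of all genes was −0.03, 0.01, −0.07, −0.03 and −0.30 in the same order.

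**Figure D1:**
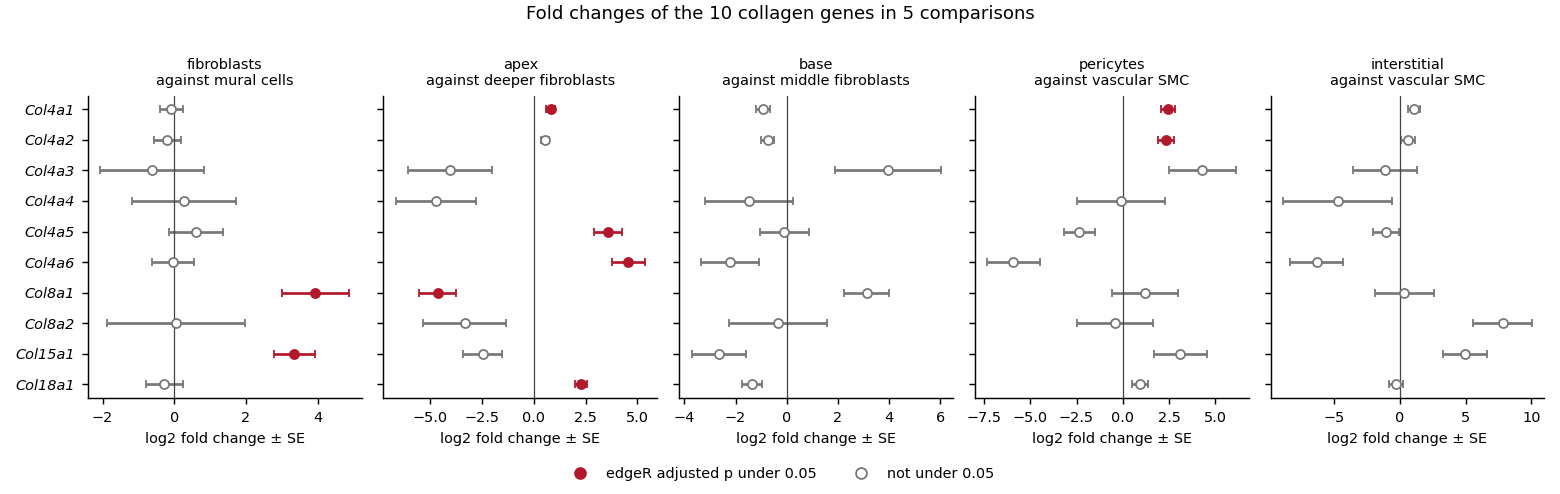
Log2 fold changes with their SE (horizontal axes) of the 10 collagen genes (rows) in 5 comparisons (panels), from edgeR fits on sums per reporter line, without a block for the line. Filled red points have an adjusted p under 0.05 over all genes: Col8a1 and Col15a1 in the first panel, Col4a1, Col4a5, Col4a6, Col8a1 and Col18a1 in the second, and Col4a1 and Col4a2 in the fourth; the fifth rests on 1 line of interstitial SMC.

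Col4a1 (chr8:11198423-11312826) and Col4a2 (chr8:11312805-11449287), the chains of the common type IV trimer, were present in every cluster and highest in pericytes. Col4a1 averaged 910.7 in the pericytes of Cspg4dsRED and 828.4 in those of PdgfrbGFP, a mean of 869.6 ± 58.1 (SD, n = 2 lines). In vascular SMC it averaged 107.4 in Acta2GFP, 95.4 in Cspg4dsRED and 192.8 in PdgfrbGFP, a mean of 131.9 ± 53.1 (n = 3). No line of one cluster reached any line of the other, and both lines that held the 2 clusters showed the gap within the line. On the PdgfrbGFP plates that held at least 10 cells of each, pericytes averaged 851.4 and 849.7 and vascular SMC 170.8 and 204.4. Col4a2 averaged 664.2 in Cspg4dsRED and 748.7 in PdgfrbGFP pericytes, a mean of 706.4 ± 59.8, and 85.2, 104.8 and 171.5 in the vascular SMC of Acta2GFP, Cspg4dsRED and PdgfrbGFP, a mean of 120.5 ± 45.3. The groups again did not overlap. Col4a1 was higher in pericytes by 2.44 ± 0.40 on the log2 scale (SE, edgeR adjusted p = 0.0197) and Col4a2 by 2.35 ± 0.43 (edgeR adjusted p = 0.0319).

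Endothelial and fibroblast markers also differed between these mural clusters. Beside the endothelial sums given above, the 5 fibroblast markers summed to 1656 to 2786 in pericytes by line and to 147.8 to 833.3 in vascular SMC, against 7752 to 8589 in fibroblasts; the part of fibroblast RNA was not tested. When the 15.3% of cells with over 50 counts per 500000 of the 10 endothelial markers were left out, among them 27.5% of pericytes and 5.67% of vascular SMC, the difference was 2.30 ± 0.41 for Col4a1 (edgeR adjusted p = 0.034) and 2.31 ± 0.44 for Col4a2 (edgeR adjusted p = 0.0485). Both calls were lost without Acta2GFP, with log2 differences of 2.26 (edgeR adjusted p = 0.12) and 2.10 (edgeR adjusted p = 0.15), and Col4a2's also when sums of at least 3 cells were used (1.93, edgeR adjusted p = 0.193).

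Among fibroblasts the Col4a1 level was higher in the middle than at the base in each of the 3 lines that held both, while the lines of the middle and the apex overlapped. At the base it averaged 181.03 in Acta2GFP, 207.98 in PdgfraGFP and 257.4 in PdgfrbGFP, a mean of 215.5 ± 38.8 (n = 3). From base to middle it averaged 229.6, 173.8, 331.6 and 310.6 in Acta2GFP, Cspg4dsRED, PdgfraGFP and PdgfrbGFP, a mean of 261.4 ± 73.1 (n = 4), so the lines of both clusters overlapped. In the middle it averaged 375.4 in Acta2GFP, 456.7 in PdgfraGFP and 545.04 in PdgfrbGFP, a mean of 459.03 ± 84.9, with every line above every line of the base. At the apex it averaged 276.6, 495.8 and 592.5 in the same lines, a mean of 454.97 ± 161.9. The middle to apex cluster averaged 319.4 in Acta2GFP and 320.1 in PdgfraGFP. Interstitial SMC averaged 290.7 in Acta2GFP, against 107.4 in the vascular SMC of that line.

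At the apex Col4a1 exceeded the deeper fibroblasts by 0.81 ± 0.22 (SE, log2; edgeR adjusted p = 0.0281), and Col4a2 by 0.53 ± 0.20, which was not called (edgeR adjusted p = 0.144). The Col4a1 call at the apex was lost without any one of Acta2GFP, PdgfraGFP and PdgfrbGFP (0.86, 0.82 and 0.70, edgeR adjusted p = 0.176, 0.154 and 0.233) and without the low-count filter (0.68, edgeR adjusted p = 0.123). Between the base and the middle the difference was −0.94 ± 0.28 for Col4a1 (edgeR adjusted p = 0.182) and −0.75 ± 0.26 for Col4a2 (edgeR adjusted p = 0.269). In a paired fit with the reporter line as a replicate block the base differed from the middle by −0.94 for Col4a1 (edgeR adjusted p = 0.00639). For fibroblasts against mural cells the difference was −0.09 ± 0.32 for Col4a1 (edgeR adjusted p = 0.928) and −0.19 ± 0.37 for Col4a2 (edgeR adjusted p = 0.864), and both turned positive without Cspg4dsRED, at 0.17 and 0.13. The mural class joined the highest and the lowest cluster of both genes, and its lines held them in different shares: pericytes, vascular and interstitial SMC made up 3.57%, 34.5% and 61.9% of the mural cells in Acta2GFP against 54.7%, 43.2% and 2.11% in PdgfrbGFP.

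Like Col4a1, Col4a2 was highest in pericytes and lowest in vascular SMC. Col4a2 averaged 160.3, 247.3 and 185.5 at the base in Acta2GFP, PdgfraGFP and PdgfrbGFP and 188.7, 106.6, 276.5 and 225.5 from base to middle in Acta2GFP, Cspg4dsRED, PdgfraGFP and PdgfrbGFP. In the middle it averaged 262.8, 485.2 and 350.01 and at the apex 186.8, 447.5 and 386.6 in Acta2GFP, PdgfraGFP and PdgfrbGFP. Middle to apex fibroblasts averaged 236.5 in Acta2GFP and 299.6 in PdgfraGFP, and interstitial SMC 172.2 in Acta2GFP. PdgfraGFP gave the highest Col4a2 line mean in each fibroblast cluster with 3 or more lines, but its plates differed. In the middle they averaged 635.7 and 227.98, against 252.1 to 500.5 on the PdgfrbGFP plates, and at the apex 566.7 and 304.4, against 377.7 and 394.1. PdgfrbGFP gave the highest Col4a1 line mean in the base, middle and apex clusters.

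**Figure D2:**
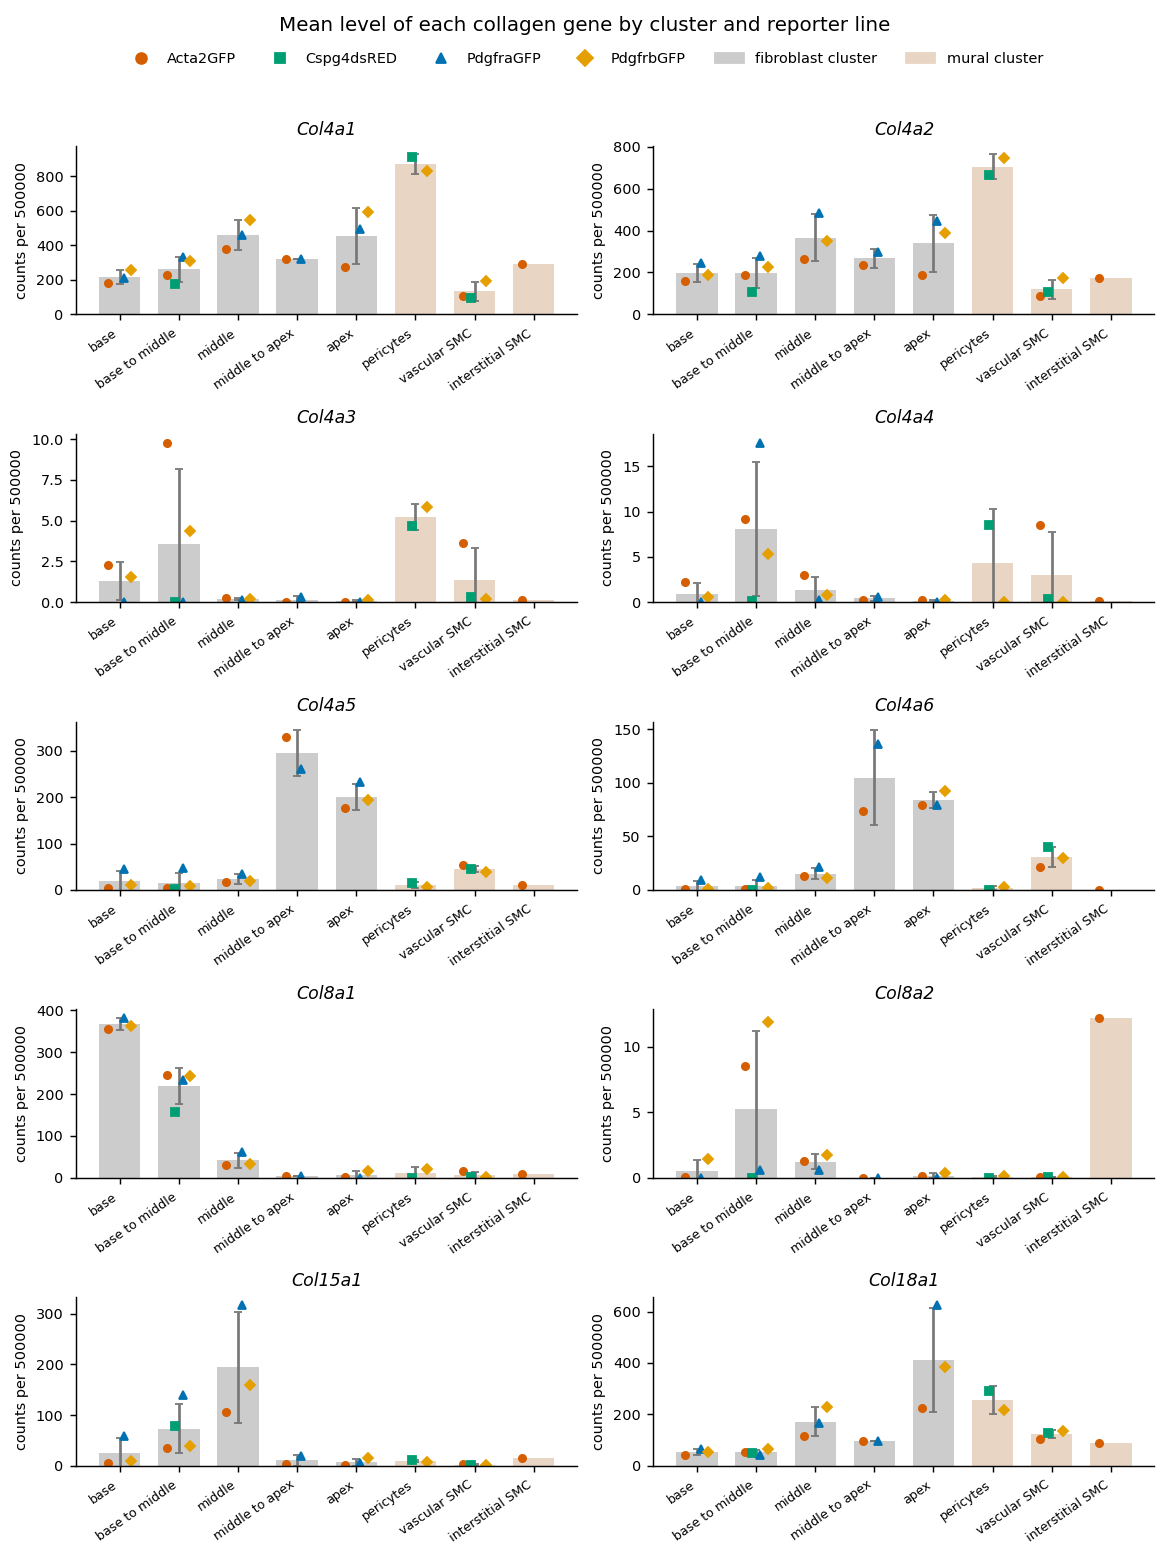
Mean level of each gene in counts per 500000 (vertical axes, scale differs by panel) in the 8 clusters (horizontal axes). Bars are means over reporter lines with at least 10 cells, error bars the SD where there are 2 or more lines, and symbols the lines. Col4a1 and Col4a2 peak in pericytes at 869.6 and 706.4, Col4a5 and Col4a6 at the upper crypt, Col8a1 at the base at 367.5, Col15a1 in the middle at 194.1 and Col18a1 at the apex at 411.3.

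Per kb of exon, Col4a1 and Col4a2 were counted in similar amounts. The ratio of Col4a1 to Col4a2 per kb lay between 0.731 and 1.48 over the 21 sums per cluster and line, with a median of 1.08. Over these sums the Pearson correlation of log2(level + 1) was 0.945, a description over clusters that share lines. Across the cells of 1 cluster in 1 line the correlation was lower, from −0.06 to 0.67, with 0.45 and 0.67 in the pericytes of the 2 lines. After thinning every cell to 50000 counts, which left out 11 shallower cells, Col4a1 was found in 81.4% to 99.2% of the cells of a cluster and Col4a2 in 81.5% to 97.9%, and without thinning in 92.9% to 100% and 89.3% to 99.2%. Both were found together in 71.4% of vascular SMC and 95.4% of apex fibroblasts, close to the 69.2% and 95.4% that independent detection would give. Counts of a pair were thinned together, and a separate draw for each gene alone gave 79.3% to 97.5% for Col4a1 and 81.5% to 96.4% for Col4a2.

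Col4a5 (chrX:141475385-141689234) and Col4a6 (chrX:141165403-141474076), the chains of the smooth muscle trimer, were highest in both fibroblast clusters of the upper crypt. Col4a5 averaged 330.7 in Acta2GFP and 261.02 in PdgfraGFP in middle to apex fibroblasts, a mean of 295.9 ± 49.3 (SD, n = 2 lines). At the apex it averaged 176.8, 231.9 and 194.4 in Acta2GFP, PdgfraGFP and PdgfrbGFP, a mean of 201.03 ± 28.1 (n = 3). In the middle it averaged 16.5, 35.3 and 19.7 in these lines, and at the base 4.34, 44.9 and 10.3. From base to middle it averaged 5.09, 2.03, 46.3 and 8.97 in Acta2GFP, Cspg4dsRED, PdgfraGFP and PdgfrbGFP. Every line of both upper clusters lay above every line of the 3 deeper ones. The 4 smooth muscle markers summed to 971.6 from middle to apex (488.8 to 1454 by line). They summed to 203.7 at the apex and 52.2 to 186.1 in the deeper fibroblasts. Acta2 made up 908.5 of the middle to apex sum and Myh11 50.7. Actg2 was at 9.46 and Cnn1 at 2.88 (0 to 5.75 by line), against 2.75 to 6.55 and 1.39 to 2.14 in the other fibroblast clusters. The 3 pericyte markers summed to 222.2 there against 11.5 to 61.4 in the other fibroblast clusters, with Kcnj8 at 103.1 and Abcc9 at 101.4. Cspg4, at 17.7, lay below base to middle (22.5) and middle (21.5). The mural markers Rgs5 (3.01) and Notch3 (0.249) were lowest there of all fibroblast clusters. The part of these markers in the levels was not tested. The Col4a5 level at the apex exceeded that of the deeper fibroblasts by 3.58 ± 0.68 (SE, log2; edgeR adjusted p = 0.0028), a call lost without Acta2GFP (3.30, edgeR adjusted p = 0.0685) or PdgfrbGFP (3.19, edgeR adjusted p = 0.0747).

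Col4a6 was lower than Col4a5 and was also highest in both upper clusters. It averaged 73.4 in Acta2GFP and 136.5 in PdgfraGFP in middle to apex fibroblasts, and 79.3, 79.6 and 92.4 at the apex in Acta2GFP, PdgfraGFP and PdgfrbGFP. In the middle the lines averaged 12.6, 21.2 and 11.6, and at the base 0.567, 9.18 and 0.442. From base to middle they averaged 0.584, 0, 12.3 and 2.07 in Acta2GFP, Cspg4dsRED, PdgfraGFP and PdgfrbGFP. The apex exceeded the deeper fibroblasts by 4.57 ± 0.79 (SE, log2; edgeR adjusted p = 0.00135), and without Acta2GFP by 4.08 (edgeR adjusted p = 0.0551). In both genes the PdgfraGFP line gave the highest line mean of each of the 3 deeper clusters. In the middle the plates spread more widely than the lines: 1 PdgfrbGFP plate reached 73.5 for Col4a5 and 57.6 for Col4a6 and another held 6.26 and 2.47, while the PdgfraGFP plates held 45.2 and 29.5 for Col4a5 and 13.6 and 25.6 for Col4a6. The plate at 57.6 lay above 1 apex plate of PdgfraGFP, at 47.5 for Col4a6.

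Among mural cells the pair was found in vascular SMC and hardly in pericytes or interstitial SMC. Col4a5 averaged 52.7, 44.8 and 38.6 in the vascular SMC of Acta2GFP, Cspg4dsRED and PdgfrbGFP, 14.6 and 5.97 in the pericytes of Cspg4dsRED and PdgfrbGFP, and 11.6 in interstitial SMC. Col4a6 averaged 21.4, 40.5 and 29.7 in vascular SMC, 0.0319 and 2.7 in pericytes and 0.193 in interstitial SMC, in the same lines. Each vascular SMC line lay above every line of the other mural clusters for both genes. The differences of pericytes from vascular SMC, −2.34 ± 0.83 for Col4a5 (edgeR adjusted p = 0.323) and −5.91 ± 1.41 for Col4a6 (edgeR adjusted p = 0.108), were not called by edgeR, and both were called by DESeq2 (adjusted p = 0.00768 and 1.39e-06). Pericytes, with the highest Col4a1 and Col4a2 levels of the 8 clusters, had the lowest mean Col4a5 level, next to that of interstitial SMC. That rank depends on the lines averaged, as PdgfraGFP gave the highest base to middle level (46.3) and held no pericyte sum. Within Cspg4dsRED pericytes (14.6) lay above base to middle fibroblasts (2.03), and within PdgfrbGFP (5.97) below them (8.97).

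Thinned to 50000 counts, Col4a5 was found in 87% of apex and 75.6% of middle to apex fibroblasts, 34.3% of vascular SMC and 7.86% to 21.2% of the other clusters. Col4a6 was found in 46.6%, 55.6% and 25% of the first 3 and 2.14% to 12.3% of the others. Without thinning the shares with Col4a5 were 90.8% at the apex, 88.9% from middle to apex and 48.2% in vascular SMC, and those with Col4a6 58%, 66.7% and 36.9%. At the apex 43.5% of cells held both, where independent detection would give 40.5%, and 93.4% of the cells with Col4a6 also held Col4a5. In vascular SMC 7.14% of cells held both, where independent detection would give 8.57%. The ratio of Col4a5 to Col4a6 per kb had a median of 4.21 over the 20 sums in which Col4a6 had a count, and a range from 0.804 to 89. Over the 21 sums the correlation of log2(level + 1) was 0.919, with no value above 0.15 between this pair and Col4a1 or Col4a2.

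**Figure D3:**
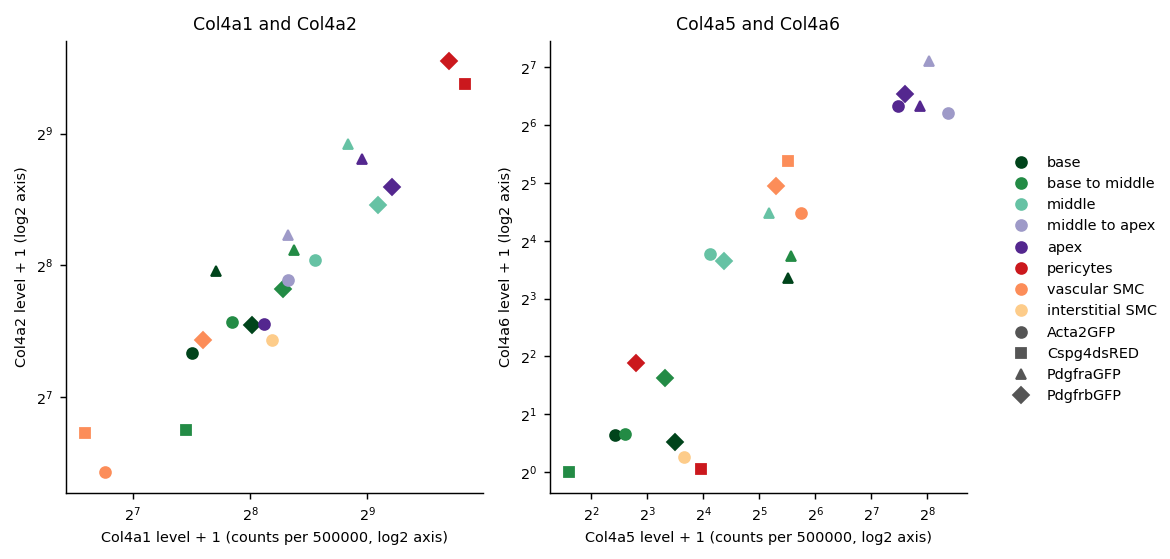
Levels of the 2 head-to-head pairs in the 21 sums per cluster and line, as level + 1 in counts per 500000 on log2 axes, with Col4a1 against Col4a2 on the left and Col4a5 against Col4a6 on the right. Colours are clusters and symbols reporter lines. Pericytes (red) stand at the top of the left panel and near the bottom of the right one, where apex, middle to apex and, below them, vascular SMC points are highest.

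Col4a3 (chr1:82586921-82722059) and Col4a4 (chr1:82448423-82586849), the pair best known from the kidney, were near the floor throughout. Cluster means of Col4a3 ran from 0.0604 at the apex to 5.24 ± 0.809 in pericytes (n = 2 lines), and those of Col4a4 from 0.104 in interstitial SMC to 8.06 ± 7.36 from base to middle (n = 4). The PdgfrbGFP pericyte plates with at least 10 cells averaged 0.386 and 12.5 for Col4a3. After thinning, 6.43% of pericytes held a Col4a3 count. The base to middle lines averaged 9.78, 0, 0 and 4.37 for Col4a3 and 9.2, 0.105, 17.6 and 5.36 for Col4a4 in Acta2GFP, Cspg4dsRED, PdgfraGFP and PdgfrbGFP. Of the cells there, 41 held a Col4a3 count and 71 a Col4a4 count, and after thinning 5, or 1.18%, held both. Neither gene was called in any comparison by edgeR, while DESeq2 called Col4a4 lower at the apex (−4.67, adjusted p = 0.00865). In the upper clusters, where Col4a5 was highest, no line exceeded 0.308 for Col4a3 or 0.578 for Col4a4.

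Col8a1 (chr16:57624258-57754737), a chain of type VIII collagen, was highest at the crypt base. At the base it averaged 355.9 in Acta2GFP, 382.8 in PdgfraGFP and 363.8 in PdgfrbGFP, a mean of 367.5 ± 13.8 (SD, n = 3). From base to middle it averaged 246.4, 156.6, 232.5 and 244.2 in Acta2GFP, Cspg4dsRED, PdgfraGFP and PdgfrbGFP, a mean of 219.9 ± 42.6 (n = 4). In the middle it averaged 30.5, 62.4 and 33.4, and at the apex 0.976, 0.504 and 16.9, in Acta2GFP, PdgfraGFP and PdgfrbGFP. Middle to apex fibroblasts averaged 4.47 in Acta2GFP and 3.27 in PdgfraGFP. The lines of the base, base to middle, middle and upper clusters formed 4 steps whose line means did not overlap. By plate 1 apex plate of PdgfrbGFP, at 22.7, lay above 1 middle plate, at 14.2, and the median over cells at the apex of PdgfrbGFP, 13.3, lay above those of the middle lines, 1.68 to 12.2. The base to middle medians were 7.75 in Cspg4dsRED and 22.3 in PdgfraGFP, against 173.2 in Acta2GFP and 170.6 in PdgfrbGFP. By the median the base to middle and middle lines therefore overlapped.

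In mural cells Col8a1 averaged 0.389 and 20.9 in the pericytes of Cspg4dsRED and PdgfrbGFP, 16, 1.09 and 1.57 in the vascular SMC of Acta2GFP, Cspg4dsRED and PdgfrbGFP, and 8.39 in interstitial SMC. At 50000 counts per cell, drawn for the gene alone, it was found in 93.6% of base, 83.3% of base to middle and 56.5% of middle fibroblasts, and in 13.3% to 29.6% of the cells of the other clusters. Without thinning these shares were 95.5%, 92.5%, 79.7% and 32.4% to 46.7%. The apex differed from the deeper fibroblasts by −4.65 ± 0.90 (SE, log2; edgeR adjusted p = 0.00334), which without Acta2GFP was −4.32 (edgeR adjusted p = 0.0713). The base lay above the middle by 3.12 ± 0.88, which edgeR did not call (adjusted p = 0.146) and which was called with plates in place of lines (3.30, edgeR adjusted p = 0.00141). Fibroblasts exceeded mural cells by 3.94 ± 0.94 (edgeR adjusted p = 0.0375). That call was lost with the reporter line as a replicate block (4.83, edgeR adjusted p = 0.0932), without Acta2GFP (4.10, edgeR adjusted p = 0.146) and without PdgfrbGFP (4.44, edgeR adjusted p = 0.155).

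Col8a2 (chr4:126286793-126314330), its partner chain, was scarcely found. The base to middle lines averaged 8.55, 0, 0.617 and 11.9 in Acta2GFP, Cspg4dsRED, PdgfraGFP and PdgfrbGFP, and 88 cells of the cluster held a count. The interstitial SMC level of 12.2 in Acta2GFP came from a single cell, the 1 of 56 with a count, a share of 1.79% with an exact 95% binomial interval of 0.0452% to 9.55%, which covers counting error only. Per kb, Col8a1 at the base reached 46.9 ± 1.76 and Col8a2 0.114 ± 0.182.

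Col15a1 (chr4:47208161-47313167) and Col18a1 (chr10:77052178-77166548), of the related collagens XV and XVIII, were highest at different heights of the crypt. Col15a1 was highest in the middle, at 105.8 in Acta2GFP, 316.8 in PdgfraGFP and 159.6 in PdgfrbGFP, a mean of 194.1 ± 109.6 (SD, n = 3). From base to middle it averaged 34.9, 78.2, 139.6 and 39.2 in Acta2GFP, Cspg4dsRED, PdgfraGFP and PdgfrbGFP, and at the base 6.01, 59.4 and 9.3 in Acta2GFP, PdgfraGFP and PdgfrbGFP. Within each of these 3 lines the middle exceeded base to middle and base to middle exceeded the base, while the lines of neighbouring clusters overlapped. At the apex it averaged 0.589, 4.65 and 14.1 in the same lines, and in middle to apex fibroblasts 2.34 in Acta2GFP and 18.4 in PdgfraGFP. The mural clusters averaged 1.16 to 14.7.

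Fibroblasts exceeded mural cells in Col15a1 by 3.35 ± 0.58 (SE, log2; edgeR adjusted p = 0.00882), higher in each of the 3 lines that held both classes. The call was lost with the reporter line as a replicate block (3.56, edgeR adjusted p = 0.0652), without Cspg4dsRED (3.05, edgeR adjusted p = 0.0537) and without PdgfrbGFP (2.99, edgeR adjusted p = 0.0866). The apex against deeper fibroblasts gave −2.48 ± 0.96, which edgeR did not call (adjusted p = 0.15) and DESeq2 did (−2.50, adjusted p = 0.0338), and the base against the middle −2.66 ± 1.06 (edgeR adjusted p = 0.38). The level in the middle of PdgfraGFP differed between its plates, at 439.4 on one and 107.3 on the other, and those of PdgfrbGFP ran from 94.8 to 243.8.

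Col18a1 was highest at the apex, at 223.4 in Acta2GFP, 624.6 in PdgfraGFP and 385.8 in PdgfrbGFP, a mean of 411.3 ± 201.8 (SD, n = 3). Pericytes followed with 292.4 in Cspg4dsRED and 215.4 in PdgfrbGFP, a gap to the apex within the SD over lines. The median over cells was 9.7 and 34.3 in the pericytes of these lines, and 137.6, 553.3 and 373.6 at the apex of Acta2GFP, PdgfraGFP and PdgfrbGFP. The middle averaged 116.6, 167.8 and 229.1 and the base 41.6, 66.2 and 53.6 in Acta2GFP, PdgfraGFP and PdgfrbGFP. Base to middle fibroblasts averaged 51.8, 49.7, 42.1 and 65.1 in Acta2GFP, Cspg4dsRED, PdgfraGFP and PdgfrbGFP, and middle to apex fibroblasts 94.9 in Acta2GFP and 94.6 in PdgfraGFP. Vascular SMC averaged 104.7, 128.5 and 133.2 in Acta2GFP, Cspg4dsRED and PdgfrbGFP, and interstitial SMC 89.8. The apex and middle lines overlapped slightly, and every line of the middle lay above every line of both lower clusters. The middle to apex cluster lay below both of its neighbours in Col18a1, whereas it stood beside the apex in Col4a5 and Col4a6.

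The apex exceeded the deeper fibroblasts in Col18a1 by 2.27 ± 0.28 (SE, log2; edgeR adjusted p = 8e-05), a call kept in all 10 alternatives run. The base differed from the middle by −1.36 ± 0.39 (edgeR adjusted p = 0.155), and by −1.38 with the reporter line as a replicate block (edgeR adjusted p = 0.0428). Pericytes against vascular SMC gave 0.91 ± 0.43 (edgeR adjusted p = 0.477), and fibroblasts against mural cells −0.28 ± 0.51 (edgeR adjusted p = 0.856). The Col18a1 gene overlaps Slc19a1 on the other strand, as do the first exons of Col4a1 and Col4a2 each other, and since the use of strand in counting is not stated, reads of a shared stretch cannot be told apart. Of the 10 genes only Col4a4, Col8a1 and Col8a2 overlap no other annotated gene. After thinning, 64.9% of middle fibroblasts held both Col15a1 and Col18a1, where independent detection would give 63.1%.

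Per kb of exon, which lets the genes be set side by side, Col4a1 and Col4a2 together held 46.4% to 86.1% of the family's counts over the 21 sums per cluster and line. They held 46.4% to 52% at the base, 48.4% to 64.2% in vascular SMC, 48.9% to 58% at the apex and 49.8% to 59.4% from base to middle, and 51.9% or more in each line of the other clusters. Shares given next were computed within each line and averaged. In pericytes Col4a1 held 44% and Col4a2 40.4%, with Col18a1 at 13.6%. At the base Col8a1 led with 39.3% (34.7% to 44.6% over lines), beside 24.1% and 24.5% for Col4a1 and Col4a2. In the middle Col15a1 held 16% and Col18a1 13.4%. At the apex Col18a1 held 26.7%, Col4a5 14.9% and Col4a6 5.35%, and in middle to apex fibroblasts Col4a5 held 28.3%. In vascular SMC Col4a5 held 10.8%, Col4a6 6.01% and Col18a1 27%. The summed level per kb was 264.8 in pericytes, 213.2 at the apex and 65.2 in vascular SMC, with line ranges of 260.4 to 269.1, 133.6 to 268.3 and 56.3 to 80.6.

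**Figure D4:**
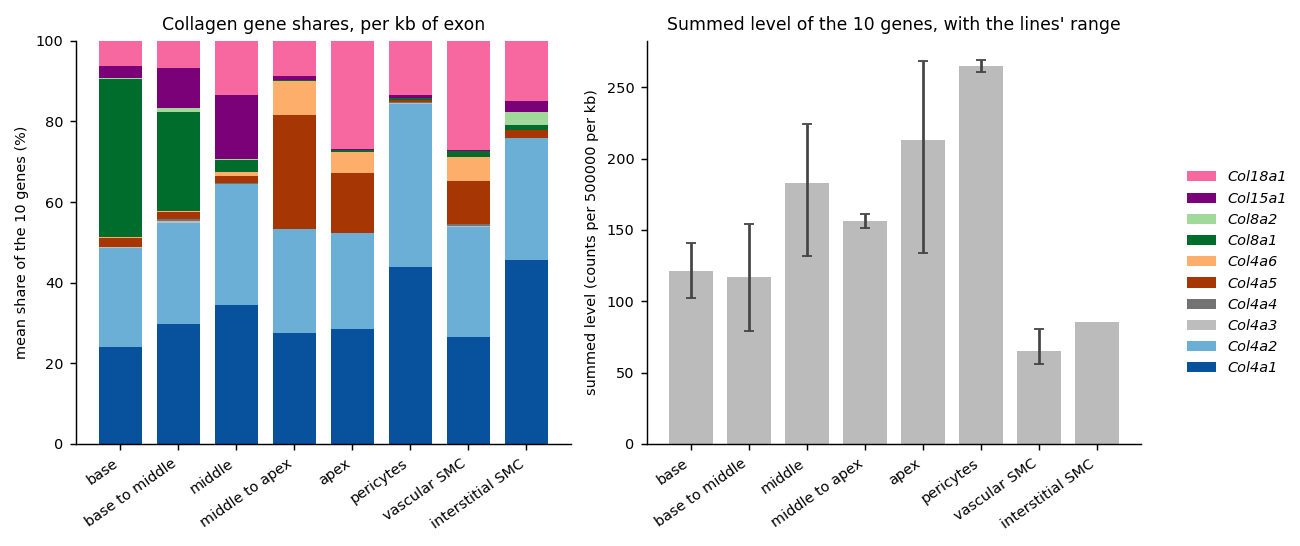
Left, mean share (%) of each collagen gene in the summed level per kb of exon of the 10 genes, by cluster. Right, that summed level in counts per 500000 per kb, as the mean over lines with the lowest and highest line as error bars; interstitial SMC come from 1 line. Col8a1 fills 39.3% of the bar at the base, Col4a5 28.3% in middle to apex fibroblasts and the Col4a1 and Col4a2 pair the most in pericytes.

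Outside the family, the genes most like each member were named by the correlation of log2(level + 1) over the 21 sums per cluster and line, among 21575 genes. Beside its partner chain, Col4a1 was most like Plac8 (r = 0.863) and Ifi47 (0.801), and Col4a2 most like Pld1 (0.851) and Olfr56 (0.812). Col4a5 was most like Col4a6, then Bmp2 (0.817), a BMP ligand, and Syne1 (0.804), and Col4a6 was most like Col4a5, then Sqle (0.846) and Syne1 (0.822). Col8a1 had the closest companions of the family, Scara5 (0.985), Gfpt2 (0.976) and the complement component C3 (0.976). Col15a1 was most like the Wnt receptor Fzd1 (0.924), Fam198b (0.878) and C1qtnf3 (0.875), and Col18a1 most like Slc12a7 (0.846), Tbx3 (0.841) and Emid1 (0.836). For the scarce genes the nearest were Als2cl (0.905), Kif21a (0.812) and Gm43127 (0.794) for Col4a3, Gm38381 (0.818), Gm25099 (0.812) and Cyp26b1 (0.795) for Col4a4, and Gm6525 (0.892), Gm38910 (0.841) and Nfasc (0.822) for Col8a2. These values rank genes over points that share lines and clusters.

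The partners of these collagens in the basement membrane were followed as a list of 52 genes, made of 11 laminin chains, 11 linkers and proteoglycans, 12 assembly enzymes, 12 receptors and 6 remodelling genes. Between fibroblasts and mural cells edgeR called 16 of 52 higher and 6 lower in fibroblasts, against 3.21% and 3.36% of all genes, with a median log2 difference of 1.01 against −0.03 for all genes. With the line as a replicate block it called 9 higher and 4 lower, against 1.36% and 1.72% of all genes, without Acta2GFP 10 and 3, against 1.53% and 1.71%, and without PdgfrbGFP 2 and 3, against 0.661% and 1.15%. With all lines and no block the laminins gave 4 higher and none lower, the assembly enzymes 5 and none, the remodelling genes 4 and none, the linkers 3 and 2, and the receptors none higher and 4 lower. The largest increases were in the matrix protein Smoc2 (5.84 ± 0.91, edgeR adjusted p = 0.00557), the collagen prolyl hydroxylase P4ha3 (5.39 ± 1.05, edgeR adjusted p = 0.0149) and the collagen glycosyltransferase Colgalt2 (5.05 ± 0.99, edgeR adjusted p = 0.0154). The largest decreases were in Frem2 (−7.63 ± 1.49, edgeR adjusted p = 0.0151), the laminin receptor Bcam (−6.43 ± 0.63, edgeR adjusted p = 0.000567) and the collagen-binding integrin Itga10 (−4.38 ± 0.93, edgeR adjusted p = 0.022). Of these 6, Bcam was called in every alternative run. The call of P4ha3 was lost without any one of Acta2GFP, Cspg4dsRED and PdgfrbGFP, those of Colgalt2 and Frem2 with the block and without Acta2GFP or PdgfrbGFP, that of Itga10 with the block and without any one of Acta2GFP, Cspg4dsRED and PdgfrbGFP, and that of Smoc2 with the block and without PdgfrbGFP. With plates as samples Frem2 was not tested.

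At the apex edgeR called 11 of the 49 partners tested higher and 6 lower, against 4.79% and 2.72% of all genes, with a median of 0.14 against 0.01. With the block it called 12 and 9, against 5.04% and 3.41% of all genes, without Acta2GFP 6 and 4, against 1.9% and 0.803%, and without PdgfrbGFP 5 and 5, against 2.93% and 1.74%. The integrin ligand Npnt (7.37 ± 0.92, edgeR adjusted p = 0.000115), the laminin chain Lama5 (7.33 ± 0.51, edgeR adjusted p = 7.29e-07) and Smoc1 (5.84 ± 1.24, edgeR adjusted p = 0.00649) were highest relative to the deeper fibroblasts. P4ha3 (−5.46 ± 1.31, edgeR adjusted p = 0.0151), the laminin chain Lama2 (−4.90 ± 0.77, edgeR adjusted p = 0.00063) and the protease inhibitor Timp3 (−3.89 ± 0.60, edgeR adjusted p = 0.000536) were lowest. The Smoc1 call was lost without Acta2GFP or PdgfrbGFP and the P4ha3 call without Acta2GFP or PdgfraGFP, and DESeq2 gave no adjusted p for Timp3. Between the base and the middle edgeR called the linker Nid1 alone of the 49, higher at the base (2.14 ± 0.23, edgeR adjusted p = 0.000216), and with the block 3, all higher at the base, where it called 0.555% of all genes higher and 0.904% lower.

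In pericytes edgeR called 3 of 47 partners higher than in vascular SMC and 1 lower, against 0.263% and 0.404% of all genes, with a median of 0.58 against −0.03. With the block it called 6 higher and 1 lower, against 0.386% and 0.649% of all genes, and without Acta2GFP 4 and 0, against 0.136% and 0.163%. Those called higher without the block were the laminin chains Lamb1 (5.40 ± 0.67, edgeR adjusted p = 0.00521) and Lama2 (4.33 ± 0.63, edgeR adjusted p = 0.0104) and the collagen IV chaperone Sparc (1.58 ± 0.30, edgeR adjusted p = 0.0387), and the one lower was the laminin-binding integrin Itga3 (−7.61 ± 1.35, edgeR adjusted p = 0.0276). The Sparc call was lost by DESeq2 and without Acta2GFP or Cspg4dsRED, and that of Lama2 with sums of at least 3 cells. That of Itga3 was lost with those sums (−7.67), without Acta2GFP (−7.62) and without cells high in endothelial markers (−7.69). Interstitial SMC were a single sum from Acta2GFP, so their differences from vascular SMC have no replicate check and are given as values. The fitted log2 difference was 5.98 for Lamb1, 3.54 for Nid1 and −5.51 for Bcam, and the basement membrane protein Frem2, with a single count over all vascular SMC, is given no fold. The median over the partners was 0.27 against −0.30 for all genes.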

How the data were processed

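The study's methods give adapter trimming with trim galore, alignment of single reads to GRCm38 with TopHat2, and read counting per gene with featureCounts; use of strand is not stated. The authors deposited raw counts per gene and cell, already limited to the cells they kept. The 92 ERCC spike-in rows, 1.36% of all counts, were left out. Cells were grouped by the deposited cluster and reporter line, with cluster names from the study, and counts were summed per line where at least 10 cells were present. Sums were tested with edgeR 4.0.16 in R 4.3.3 (TMM, filterByExpr, quasi-likelihood F test, Benjamini-Hochberg over all genes), after the scripts were tested on simulated data. The SE of a log2 fold change is its size over the root of its F statistic. DESeq2, no low-count filter, the line as a block, sums of at least 3 cells, plates as samples and leaving out each line were the alternatives, with the median over cells and pooled counts for levels; leaving out cells high in endothelial markers was added after seeing the data.

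Lines pair the clusters because both come from the same plates, and same-line sums deviated from their group means together (correlations 0.106 to 0.186). As no label names a mouse, p-values measure the spread between lines, which may be technical. Named genes were all 10 collagens, the 3 largest called changes of the partner list by comparison and direction, and the 3 genes most like each collagen. The collagens and lists were chosen with earlier results of these data known. The study used samtools to remove doublets after mapping, which may mean duplicate reads. Separately, it dropped cells with very many expressed genes as possible doublets, and its sort applied doublet discrimination. No molecular identifiers were used, so a count is not 1 molecule and intervals cover counting error only.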

Additional observations from a re-analysis of the deposited data

Results flagged for a closer look

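With 4 lines in a group, a value was flagged when it lay apart from the other lines by more than Dixon's 95% limit for the gap relative to the whole range, which chance does for about 1 group in 20; 4 of 20 groups were flagged. Col4a6 in fibroblasts was 45.4 in PdgfraGFP, against 12.4 to 15.2 in the other lines. PdgfraGFP gave 13.8% of all cells, against 34.4% from Acta2GFP and 46.2% from PdgfrbGFP. Yet it held the most cells of both upper clusters, where Col4a6 was highest. It held 55 apex and 26 middle to apex cells, against 44 and 10 in Acta2GFP and 30 and 9 in PdgfrbGFP. Cspg4dsRED held 2 and 0. The part of this mix of clusters in the PdgfraGFP level was not tested. In base to middle fibroblasts, PdgfraGFP had 46.3 for Col4a5, against 2.03 to 8.97, and 12.3 for Col4a6, against 0 to 2.07. Col8a1 in base to middle fibroblasts was 156.6 in Cspg4dsRED, from 13 cells, against 232.5 to 246.4 in the other lines. None of 30 comparisons over plates had every plate of one line moving one way and every plate of another the opposite way.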

How the results depend on the processing

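Leaving out 1 line at a time gave 0 to 2 collagens called for fibroblasts against mural cells, 1 to 5 for the apex and 0 for base against middle. Pericytes against vascular SMC lost both calls without Acta2GFP. Fits without Cspg4dsRED or PdgfrbGFP kept 1 pericyte line, and interstitial SMC had 1 line throughout, so calls are not counted for these. The paired fit, with the line as a replicate block, called 0 for fibroblasts against mural cells and 2 for base against middle, and changed no other count of collagens called. DESeq2 called 6 at the apex, where it added Col4a4 and Col15a1, 2 for base against middle and 4 for pericytes, and gave no adjusted p for Col8a1 in both fibroblast comparisons. Sums of at least 3 cells gave 1 for base against middle (0.548% of all genes higher and 0.78% lower) and 1 for pericytes (0.238% and 0.357%), and plates gave 3 for base against middle. Leaving out cells high in endothelial markers left every count as it was. Of the 20 levels in fibroblasts and mural cells, 13 moved by more than the spread between lines when the median over cells replaced the mean, as for Col18a1 in fibroblasts (127.6 to 13.2), and 1 when counts were pooled.

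Over all genes tested, 6.57% were called between the classes (15.3% by DESeq2, 3.81% unfiltered, 16.1% with plates, 3.08% with the block, 1.81% to 5.81% without a line) and 7.51% at the apex (12.4% by DESeq2, 2.7% to 8.27% without a line). Base against middle gave 0.909% (4.06% by DESeq2, 3.15% with plates, 1.46% with the block, 0.0748% to 1.08% without a line). Pericytes gave 0.668% (5.92% by DESeq2, 1.85% unfiltered, 2.18% with plates and 1.04% with the block).

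No called direction turned. Among uncalled differences between the classes, the sign changed for Col4a1 without endothelial-high cells (0.06), Col4a3 (0.37) and Col4a6 (0.38) with plates, Col4a5 with the block (−0.70), Col4a6 unfiltered (0.01) and Col8a2 by DESeq2 (−0.02). It also changed for Col8a2 at the base with plates (0.03), for Col4a4 in pericytes with the block (3.08) and without endothelial-high cells (6.48), and in interstitial SMC for Col4a4 without those cells (1.70) and for Col8a1 (−1.14) and Col18a1 (0.03) with the block. Without a line, class differences ran from −0.24 to 0.17 for Col4a1, −0.42 to 0.13 for Col4a2, −2.21 to 0.20 for Col4a3, −0.13 to 0.73 for Col4a4, −0.44 to 0.96 for Col4a5, −0.61 to 0.65 for Col4a6, −1.84 to 5.53 for Col8a2 and −0.74 to 0.21 for Col18a1. At the base they ran from −1.48 to 0.36 for Col4a5 and −4.00 to 0.28 for Col8a2, in pericytes from −7.15 to 0.32 for Col4a4, −5.46 to 4.29 for Col8a1 and −3.16 to 0.55 for Col8a2, and in interstitial SMC from −0.23 to 0.33 for Col8a1. The cause of these changes was not tested.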
